A study of Homo sapiens with 7 samples.

Results

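The comparison set the H3K27me3 library against the H3K36me3 library of T-47D, a human luminal breast cancer cell line that carries the estrogen receptor. Without any treatment named, the cells were grown in DMEM with serum, and histone-DNA complexes from sonicated nuclei were isolated with an antibody and sequenced (ChIP-seq). The H3K27me3 antibody came from Cell Signaling and the H3K36me3 antibody from Active Motif. The members are all deposited peaks of these libraries on chromosomes 1 to 22 and X, which number 64492 for H3K27me3 and 52558 for H3K36me3, or 117050 of the 285703 peaks in all 6 lists. The other lists, H3K4me2, H3K27ac, H2A.Z and H3K9me3, served as a yardstick. Each mark had 1 library, so no value below has a replicate check, no test between the marks was possible, and read depth is unknown. The lists give only the position of each peak, on build hg19, so a peak is present or absent and has no height. An annotation of hg19 was not used here, so regions are given by coordinates without gene names, and the identity of the line was not checked against marker genes.

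As background, H3K27me3 is laid down by Polycomb repressive complex 2, whose catalytic subunit is EZH2 or EZH1, and it spreads over silenced genes, among them developmental regulators that stay off in epithelial cells. H3K36me3 is laid down by SETD2, which travels with elongating RNA polymerase II, so the mark lies over the bodies of transcribed genes. H3K36 methylation on a histone tail is known to hinder PRC2 on that tail. Active promoters and enhancers carry H3K27ac, and H3K4me2 is found at these and at poised ones. The variant histone H2A.Z is known from the same elements, and H3K9me3 from heterochromatin. The list labelled H2A.Z did not lie as a list of active elements would, which puts its label in doubt. Of the peaks labelled H2A.Z, 40.2% lay within 5 kb of H3K27me3 and 1.20% within 5 kb of H3K36me3, where H3K27ac had 1.52% and 40.5%. The list labelled H3K9me3 gave no such clear picture. Of its peaks 13.6% lay within 5 kb of H3K36me3, against 12.2% of the analysed span, with 0.156% against 3.62% overlapping it and 12.2% against 5.49% at 1 to 5 kb. Both are called by their labels below, and what they hold was not tested.

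H3K27me3 peaks were mostly short and H3K36me3 peaks were wider, while peaks of both marks came in dense groups. Of the H3K27me3 peaks, 57.8% had the commonest width of 0.501 kb and 97 exceeded 5 kb. Of the H3K36me3 peaks, 38.4% had that width and 4545 exceeded 5 kb. The same width held for 66.8% of peaks labelled H2A.Z, 65.0% of those labelled H3K9me3, 48.0% of H3K4me2 and 41.9% of H3K27ac. It was thus common in every list and not particular to H3K27me3. Whether it was set by the peak calling was not tested. The spacing of H3K27me3 and H3K36me3 peaks was much more alike than their width. Neighbouring H3K27me3 peaks stood a median of 3735 bp apart (95% interval 3685 to 3783) and neighbouring H3K36me3 peaks 3013 bp (2963 to 3056). Like neighbours lay within 20 kb in 83.8% of H3K27me3 gaps and 83.3% of H3K36me3 gaps, against 59.0% for H3K4me2 and 56.8% for H3K27ac. Intervals on medians are exact binomial intervals of the order statistics, and cover counting error only. They treat each peak as a separate observation and are therefore narrower than they should be for clustered peaks.

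Merging peaks of 1 mark across short gaps turned them into domains, whose lengths depended strongly on the distance allowed. Within 1 kb, the 54494 H3K27me3 domains had a median length equal to that commonest width and the 41909 H3K36me3 domains one of 881 bp (862 to 897). At that distance 26 H3K27me3 domains reached 10 kb, against 2088 of H3K36me3, and the longest measured 17.3 kb and 80.0 kb. Thus H3K36me3 held nearly all long domains when only short gaps were bridged. Within 5 kb, the 27069 H3K27me3 domains had a median of 1186 bp (1075 to 1299) and the 19623 H3K36me3 domains 4062 bp (3916 to 4187). Within 20 kb, the 10431 H3K27me3 domains had a median of 5406 bp (4864 to 5941) and the 8709 H3K36me3 domains 18264 bp (17400 to 18994).

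The order of the marks turned in the longest domains. Within 20 kb the 90th percentile still stood higher for H3K36me3 (79272 bp) than for H3K27me3 (72652 bp). The 99th percentile, however, was 315632 bp for H3K27me3 and 170039 bp for H3K36me3. Domains of 100 kb or more numbered 689 for H3K27me3 and 496 for H3K36me3, where merging within 5 kb had given 3 and 10. The N50, the length such that domains at least as long make up 50% of the summed domain length, was 102681 bp for H3K27me3 and 62726 bp for H3K36me3.

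**Figure D1:**
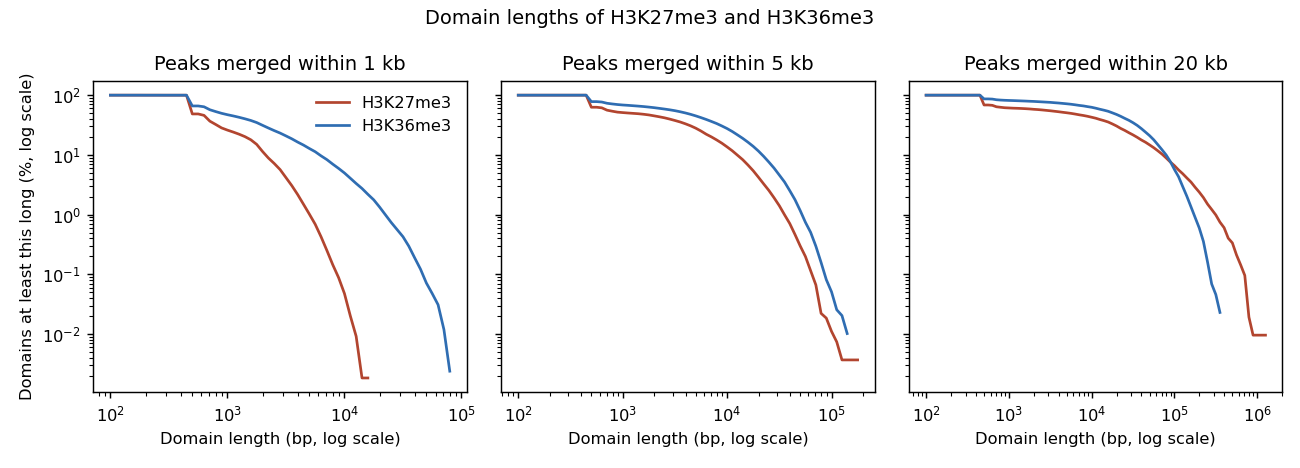
Share of domains (%, log scale) at least as long as the length on the x axis (bp, log scale), for H3K27me3 and H3K36me3 peaks merged within 1, 5 and 20 kb. The H3K36me3 line lies above the H3K27me3 line within 1 kb at all plotted lengths over 0.501 kb, and within 20 kb the lines cross so that H3K27me3 reaches 1291785 bp against 375458 bp.

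The long H3K27me3 domains were sparse inside. Peaks filled 88.0% of the H3K27me3 domains merged within 1 kb, 39.1% of those within 5 kb and 16.9% of those within 20 kb. For H3K36me3 the filled shares were 93.5%, 62.4% and 37.5%. A small number of domains held most H3K27me3 peaks. Within 20 kb, 1496 domains of 10 or more peaks held 66.0% of all H3K27me3 peaks and spanned 200 Mb, while 4228 peaks (6.56%) stood alone. For H3K36me3, 1732 such domains held 55.0% of peaks over 151 Mb, and 2138 peaks (4.07%) stood alone.

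The longest H3K27me3 domain within 20 kb ran for 1292 kb on chromosome 7 (3261023 to 4552807). It held 321 H3K27me3 peaks that filled 25.6% of it, along with 244 peaks labelled H2A.Z, 13 H3K4me2 peaks and 0 H3K27ac peaks. Chromosome 5 (1893565 to 2734433) held the next, of 841 kb with 211 peaks, and chromosome 20 (57623666 to 58404530) the third, of 781 kb with 153 peaks. Neither of these held an H3K27ac peak, and they held 56 and 103 peaks labelled H2A.Z. None of the 3 held an H3K36me3 peak. The longest H3K36me3 domains within 20 kb were found at 62282142 to 62657599 of chromosome 11 (375 kb), at 71417684 to 71786191 of chromosome 15 (369 kb) and at 62282042 to 62631275 of chromosome 1 (349 kb). They held 53, 11 and 0 H3K27ac peaks and no peak labelled H2A.Z or H3K27me3. The domain on chromosome 11 was filled to 54.8% by its 40 peaks, more than any of the 3 long H3K27me3 domains.

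Within 5 kb the longest H3K27me3 domain had 54 peaks over 180 kb of chromosome 5 (1910015 to 2089774). It was followed by 43 peaks over 119 kb of chromosome 15 (92820406 to 92939236) and by 33 peaks on chromosome 7 (3342588 to 3443784). Those on chromosomes 5 and 7 were stretches of the megabase-scale domains named above. The longest H3K36me3 domains at that distance measured 150 kb (chromosome 1, 12292853 to 12442639), 142 kb (chromosome X, 53558105 to 53699869) and 128 kb (chromosome 21, 38488671 to 38617087). Peaks filled 78.0 to 87.0% of these H3K36me3 domains and 34.4 to 37.6% of the H3K27me3 ones. Within 1 kb the longest H3K27me3 domains measured 17.3, 13.9 and 13.5 kb, at 3179823 to 3197097 of chromosome 5, 71716755 to 71730687 of chromosome 17 and 6537577 to 6551119 of chromosome 10. The longest H3K36me3 domains within 1 kb measured 80.0, 74.8 and 74.6 kb, at 5241474 to 5321485 of chromosome 17, 47794066 to 47868831 of chromosome 11 and 102447907 to 102522473 of chromosome 14, each made of 1 or 2 peaks.

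Bridging gaps of up to 20 kb hardly ever bridged the other mark. Of the 10431 H3K27me3 domains within 20 kb, 15 (0.144%) held an H3K36me3 peak, and of the 8709 H3K36me3 domains, 18 (0.207%) held an H3K27me3 peak. The other lists entered these domains far more often. H3K4me2 peaks lay in 18.5% of the H3K27me3 domains and peaks labelled H2A.Z in 31.7%, whereas H3K27ac peaks lay in 1.45%. Of the H3K36me3 domains, 38.6% held H3K4me2, 33.0% held H3K27ac and 2.74% held a peak labelled H2A.Z.

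The distance between the marks was then measured from each H3K27me3 peak to the nearest H3K36me3 peak, edge to edge. H3K27me3 lay at middle distances from H3K36me3, rarely next to it and rarely very far from it. The median distance was 188 kb (186 to 190), with 5% of peaks under 25.8 kb and 5% over 795 kb. The reverse median, from H3K36me3 to H3K27me3, was 167 kb (165 to 169). H3K27ac peaks lay at a median of 9.45 kb from H3K36me3, H3K4me2 peaks at 35.6 kb, those labelled H3K9me3 at 103 kb and those labelled H2A.Z at 363 kb. Points set every 1 kb along the analysed span lay at 163 kb. Pooled over chromosomes, the H3K27me3 median was thus close to that of the span, and the shape of the distribution set it apart.

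Of the H3K27me3 peaks, 4 overlapped H3K36me3 and 115 (0.178%) lay within 5 kb, where 12.2% of the span did. From 5 to 20 kb they held 3.12% against 8.85% of the span, a ratio of 0.353. The shares were nearly equal from 20 to 50 kb (9.41% against 9.73%). From 100 to 250 kb H3K27me3 held 33.2% of its peaks against 17.5% of the span, a ratio of 1.89. Beyond 1 Mb it held 2.56% against 12.2%, a ratio of 0.210. The peaks labelled H2A.Z shared the low share near H3K36me3 but not the low share far from it, with 12.5% beyond 1 Mb. H3K27ac (1.63%) and H3K4me2 (3.78%) were also low beyond 1 Mb, so that trait was not particular to H3K27me3. H3K36me3 showed the same hump around H3K27me3, with 0.207% of its peaks within 5 kb (13.2% of the span), 31.3% from 100 to 250 kb (18.7%) and 4.18% beyond 1 Mb (11.0%). H3K27ac had a similar hump around H3K27me3, with ratios to the span of 1.57 from 100 to 250 kb and 0.429 beyond 1 Mb. Those of H3K36me3 were 1.67 and 0.379. The lists differed more close by, with a ratio from 1 to 5 kb of 0.0247 for H3K36me3 and 0.180 for H3K27ac.

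**Figure D2:**
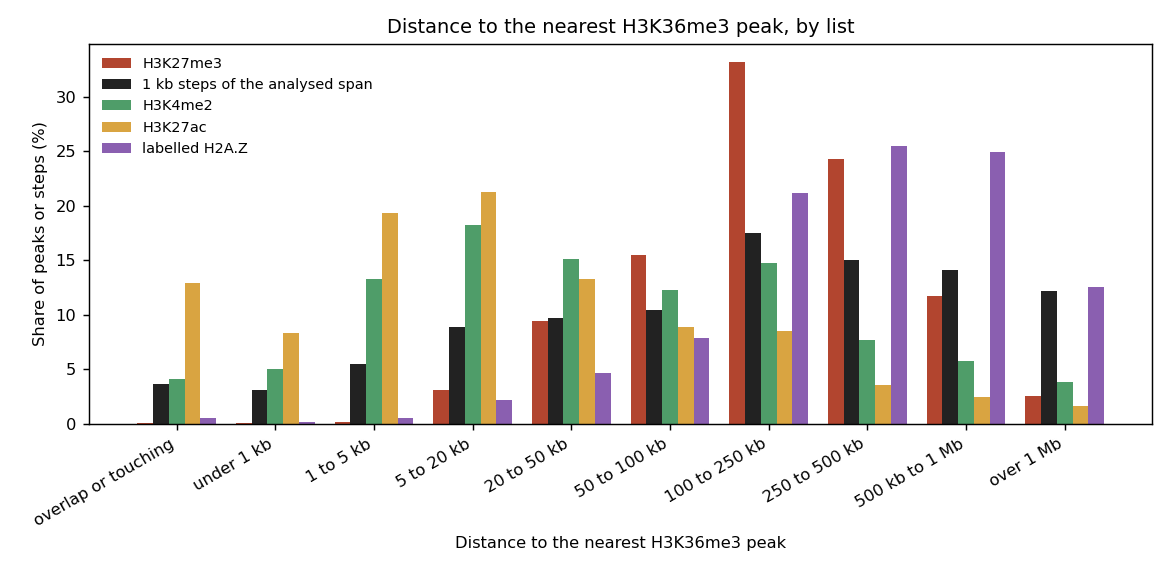
Share of peaks (%) of H3K27me3, of 3 comparison lists (H3K27ac, H3K4me2 and labelled H2A.Z) and of 1 kb steps along the analysed span, by distance to the nearest H3K36me3 peak. H3K27me3 bars are close to 0 below 5 kb, exceed those of the span from 50 to 500 kb with a top of 33.2% from 100 to 250 kb, and fall below the span beyond 500 kb.

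The pattern held along the genome. The share of H3K27me3 peaks within 20 kb of H3K36me3 was below that of the span on 23 of 23 chromosomes, with chromosome 19 at 5.04% against 53.0% and chromosome 4 at 3.47% against 12.3%. The share at 1 Mb or more was below the span on 21 of 23. The exceptions were chromosome 19 (0.706% against 0.596%) and chromosome 22 (1.12% against 0.207%), where few points of the span lay that far away. The median gave no such uniform picture, since it exceeded that of the span on 15 of 23 chromosomes. It was 106 kb against 16.7 kb on chromosome 19, but 183 kb against 376 kb on chromosome 4. The closeness of the pooled medians therefore did not hold on single chromosomes such as these.

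Among H3K27me3 peaks the distance varied little with width. The median was 191 kb (188 to 193) for the 37314 peaks of at most 0.501 kb, 183 kb (179 to 189) for the 7258 peaks of 1 to 2 kb and 186 kb (130 to 225) for the 97 peaks over 5 kb. Peaks alone and peaks in groups differed more, at both ends of the distribution. Of peaks alone within 20 kb, 7.45% lay within 20 kb of H3K36me3 and 7.66% at 1 Mb or more. Of peaks in domains of 10 or more, 1.91% and 1.18% did. Inner peaks of a long domain without H3K36me3 cannot lie near H3K36me3, so the first of these shares is partly set by how the class is built. H3K36me3 peaks over 5 kb lay somewhat nearer to H3K27me3 (150 kb, 143 to 156) than those of 1 to 2 kb (175 kb, 170 to 179). Of these classes, 6.56% and 3.46% were within 20 kb. The distance did not fall steadily with width, since H3K36me3 peaks of at most 0.501 kb lay at 166 kb. Distances run edge to edge, so a wider peak reaches nearer by its width alone.

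The 4 overlaps lay on chromosomes 14 and 17. On chromosome 14 (49594875 to 49597608) a 2734 bp H3K27me3 peak enclosed an H3K36me3 peak and also met 2 peaks labelled H2A.Z. On chromosome 17 (36358192 to 36358692 and 33747682 to 33748182) peaks of the commonest width shared 463 and 228 bp. On chromosome 14 (72376686 to 72377186) the shared stretch was 29 bp. In each of these cases the H3K36me3 peak had the commonest width. The farthest H3K27me3 peaks all lay on chromosome 9, at 47212113 to 47212868 (8.60 Mb away), 47204166 to 47204666 (8.59 Mb) and 44791569 to 44792069 (6.18 Mb). These shared 1 nearest H3K36me3 peak, at 38608771 to 38609271.

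Ordering the peaks of both lists along each chromosome showed long runs of 1 mark in place of a fine mixture. Of the 117027 neighbouring pairs, 5280 joined an H3K27me3 peak to an H3K36me3 peak, a switch rate of 4.51% (exact binomial interval 4.39 to 4.63) or 1.90 switches per Mb. This was the lowest of the 15 pairs of lists, followed by H3K36me3 with the list labelled H2A.Z at 5.15% and H3K27me3 with H3K27ac at 7.73%. H3K36me3 switched with H3K27ac at 28.0% and H3K27me3 with the list labelled H2A.Z at 31.4%, and the highest rate was that of H3K4me2 with H3K27ac at 45.5%. The rate also depends on the sizes of the 2 lists and on how many close peaks make up a group of 1 mark. The number of switches hardly moved when peaks were merged first, at 5278, 5270 and 5244 within 1, 5 and 20 kb. Merging removes a switch only where a bridged gap holds the other mark, so this follows from the few such domains described above. The rate per pair was 27.4% within 20 kb, where 19117 pairs were left. Other pairs of lists were not measured on merged domains, so the rank is one of single peaks only.

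A run of H3K27me3 peaks without an H3K36me3 peak between them held a median of 7 peaks (7 to 8) over 122 kb (111 to 138). A run of H3K36me3 peaks held a median of 11 (10 to 12) over 112 kb (103 to 120). H3K27me3 runs were the more uneven. Of the 2654 H3K27me3 runs, 497 (18.7%) were a single peak, against 243 of 2649 (9.17%) for H3K36me3. At the other end, 415 H3K27me3 runs of 50 or more peaks held 64.6% of its peaks, against 261 runs and 39.3% for H3K36me3. Within the analysed span, runs of H3K27me3 took up 1125 Mb (40.6%) and runs of H3K36me3 896 Mb (32.3%), although H3K36me3 peaks covered 3.63% of the span and H3K27me3 peaks 1.75%.

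The runs with most peaks stood out in what else they held. For H3K27me3 they held 406 peaks (chromosome 7, 2921089 to 4710366), 378 peaks (chromosome 7, 66832902 to 69031704) and 271 peaks (chromosome 11, 78308677 to 82518295). In them were 3, 2 and 3 H3K27ac peaks and 266, 356 and 343 peaks labelled H2A.Z. For H3K36me3 they held 245 peaks (chromosome 19, 10218036 to 13252554), 239 peaks (chromosome 3, 46957533 to 49573514) and 221 peaks (chromosome 1, 25546183 to 29098714). In them were 145, 76 and 129 H3K27ac peaks and 26, 3 and 1 peaks labelled H2A.Z. By span, the longest run was 62.8 Mb of chromosome X (71408004 to 134168598), with 182 H3K36me3 peaks, 168 H3K27ac peaks and not 1 H3K27me3 peak. Its H3K36me3 peaks covered only 0.299% of it, against 3.63% of the analysed span, so it was sparse in its own mark too. It also held 110 H3K4me2 peaks, 15 labelled H3K9me3 and 1 labelled H2A.Z. This run was singled out after its values were seen.

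Chromosomes differed less in their switch rate than in the length of their H3K27me3 runs. The rate lay between 3.46% on chromosome 14 and 6.99% on chromosome X. The median H3K27me3 run held 20 peaks on chromosome 8, 18 on chromosome 20 and 17 on chromosome 11, but 3 on chromosomes 19 and X and 4 on chromosomes 2, 4 and 17. The median H3K36me3 run ranged from 7 peaks on chromosome 11 to 18 on chromosome 19.

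Where the marks changed over, they left a wide gap. The 5280 gaps at a switch had a median of 48.2 kb (46.6 to 50.5), against 3.44 kb (3.39 to 3.48) between H3K27me3 neighbours and 2.67 kb (2.63 to 2.72) between H3K36me3 neighbours. Here touching peaks count as a gap of 0 and pairs with the other mark between them are left out, unlike in the spacing above. Only 107 switch gaps were under 5 kb, including the 4 overlaps, and 589 (11.2%) exceeded 250 kb. The gaps held active marks. From 20 to 50 kb in length, 69.5% of switch gaps held an H3K4me2 peak, 48.6% an H3K27ac peak and 19.1% a peak labelled H2A.Z. Gaps of that length between H3K27me3 neighbours held them in 32.0%, 5.50% and 44.5%. Those between H3K36me3 neighbours held them in 68.8%, 55.8% and 4.09%. By the share of gaps of that length with H3K4me2 or H3K27ac, switch gaps were thus nearer to gaps between H3K36me3 neighbours. By covered sequence they stood between the 2 kinds of like gap. H3K27ac covered 2.31% of switch gaps, 0.164% of those between H3K27me3 neighbours and 5.03% of those between H3K36me3 neighbours. H3K4me2 covered 3.63%, 1.11% and 5.18%. The list labelled H3K9me3 lay in 41.7% of switch gaps of that length, more than in either kind of like gap (19.7% for H3K27me3 and 26.8% for H3K36me3). In the 103 switch gaps under 5 kb without overlap, H3K4me2 covered 9.62% of the sequence, H3K27ac 7.94% and the list labelled H3K9me3 5.77%, against 0.393% for the list labelled H2A.Z.

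The contents of the wide switch gaps were lopsided. In the 1537 switch gaps of 100 kb or more, H3K27ac covered 4.90% of the first 10 kb at the H3K36me3 edge and 0.320% at the H3K27me3 edge. H3K4me2 covered 4.64% and 1.22%, and both of these active marks were higher at the H3K36me3 edge on 23 of 23 chromosomes. Peaks labelled H3K9me3 had the same order, at 1.11% and 0.408%, on 21 chromosomes. Those labelled H2A.Z had the opposite order, at 0.226% and 0.696%, also on 21.

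The same edges differed with what lay on the far side of the gap. At an H3K36me3 edge, H3K27ac covered 6.34% from 1 to 5 kb into a gap that ended in H3K27me3 and 7.64% into a gap that ended in H3K36me3. At an H3K27me3 edge, the list labelled H2A.Z covered 1.41% of the first 1 kb and 0.452% from 5 to 10 kb when the gap led to H3K36me3. It covered between 2.29 and 2.74% over the first 50 kb when the gap led to another H3K27me3 peak. H3K4me2 at an H3K27me3 edge covered 0.784% of the first 1 kb and 2.12% from 40 to 50 kb in gaps to H3K36me3, above its 1.90% of the span. In gaps to H3K27me3 it covered 1.13% at that depth.

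**Figure D3:**
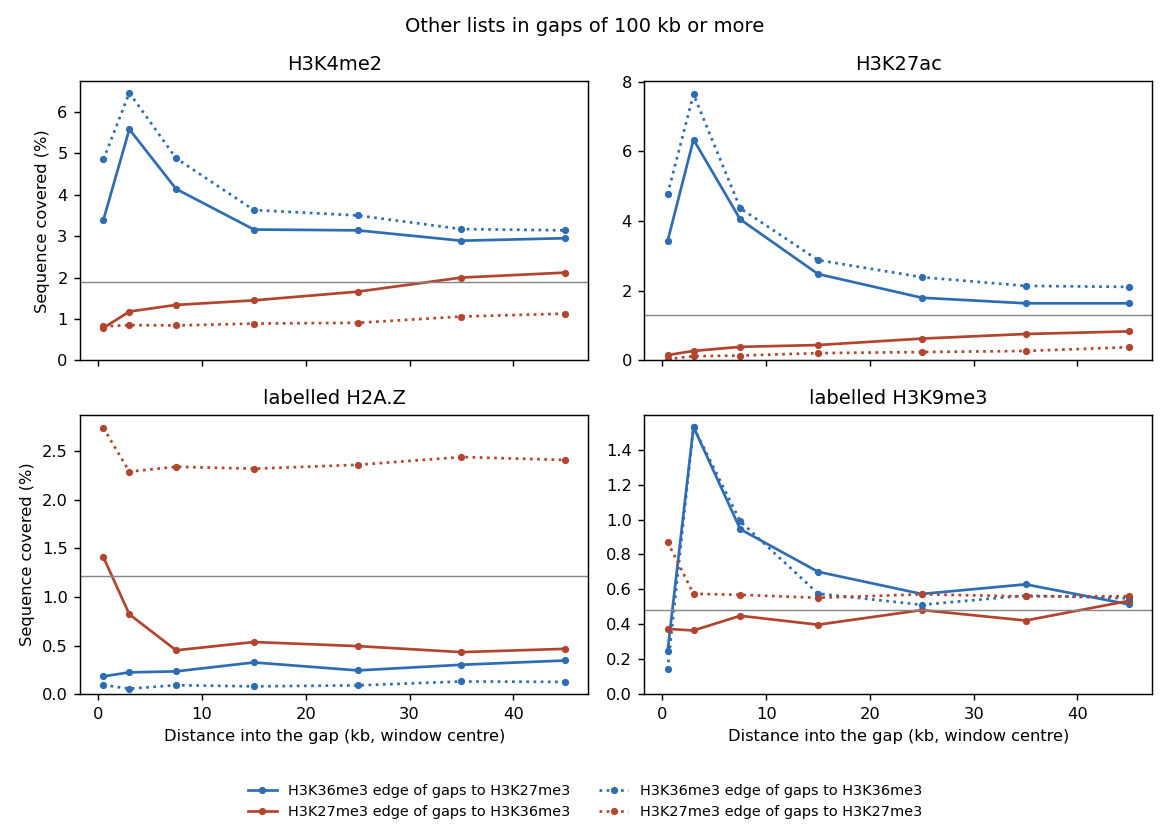
Sequence covered (%) by 4 other lists against distance into gaps of 100 kb or more (kb, window centre). Solid lines are gaps at a switch of mark, dotted lines gaps between like neighbours, blue lines start at H3K36me3 and red lines at H3K27me3, and the grey line is the share of the analysed span. H3K27ac tops out at 6.34% and 7.64% from 1 to 5 kb on the blue lines and is at most 0.834% on the red ones, while the list labelled H2A.Z is at least 2.29% on the dotted red line and at most 1.41% on the other lines.

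At a coarser scale, the genome was cut into bins of 1 Mb. A bin was evaluated when at least 50% of it lay in the analysed span and both marks together covered at least 5 kb, which held for 2131 of 2770 bins. It was called dominated when 1 mark covered at least 4 times the bp of the other. With 1 library per mark this is a call by size, without a test. H3K36me3 dominated 931 bins (43.7%, exact binomial interval 41.6 to 45.8), H3K27me3 dominated 417 (19.6%, 17.9 to 21.3) and 783 (36.7%) fell to neither. H3K36me3 covered 101 Mb and H3K27me3 48.5 Mb in all, and the split depends on that. When covered bp were divided by the genome total of each list, H3K36me3 dominated 34.6% and H3K27me3 26.4% of bins. Counting peaks in place of bp gave 31.9% and 27.2%. H3K36me3 dominated more bins in each of these settings.

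**Figure D4:**
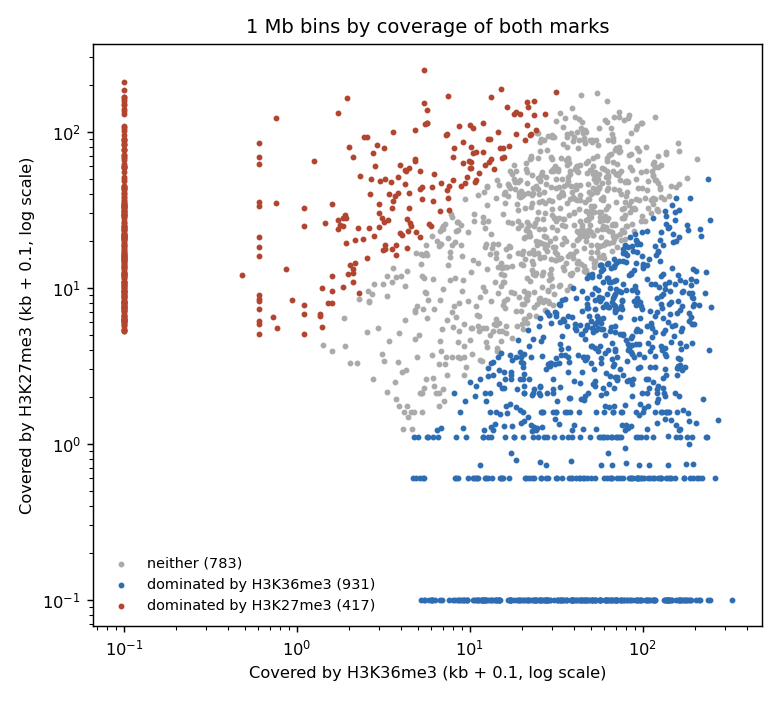
Each point is an evaluated 1 Mb bin, by kb covered by H3K36me3 (x axis) and H3K27me3 (y axis), both on log scales after adding 0.1 kb, with colour for the class. The points along the left and lower borders are the 226 bins without H3K36me3 and the 232 bins without H3K27me3, and the grey cloud of 783 bins holds both marks.

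Under the call by covered bp, H3K36me3 bp sat mainly in its own bins and H3K27me3 bp mainly in shared ones. This contrast depends on the unequal totals of the lists (101 Mb and 48.5 Mb), which make a bin easier to call for H3K36me3. It was not recomputed with scaled values. The bins dominated by H3K36me3 held 68.4% of its covered bp. Those dominated by H3K27me3 held 36.9% of its covered bp, and the bins of neither mark held 54.0%. The median H3K36me3-dominated bin had 60.5 kb of H3K36me3 (56.5 to 65.2) and 1.65 kb of H3K27me3. The median H3K27me3-dominated bin had 25.9 kb of H3K27me3 (23.4 to 30.7) and 0 kb of H3K36me3, since 226 of the 417 had none. Over the evaluated bins Spearman's rho between the covered bp of the marks was -0.168 (n = 2131 bins, which share libraries and chromosomes). It ranged from -0.676 on chromosome 22 to 0.0851 on chromosome 21, and was below 0 on 21 of 23 chromosomes. The 639 bins with little of both marks were left out of it. Choosing bins by the sum of both marks pushes rho towards negative values. Its sign, over all bins or by chromosome, therefore cannot be told apart from that choice.

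Bins with much of both marks were still divided into blocks. In the 82 bins where each mark covered at least 50 kb, the median number of switches was 4 (3 to 5) among a median of 124 peaks, and 15 of them had a single switch. Ranked by whichever mark was scarcer in the bin, the first lay on chromosome 3 (44000001 to 45000000), with 124 kb of H3K27me3 in 140 peaks and a nearly equal length of H3K36me3 in 58 peaks. It had 7 switches in 197 neighbouring pairs. The next, on chromosome 20 (60000001 to 61000000), had 3 switches in 138 pairs. The third, on chromosome 3 (10000001 to 11000000), changed once in 158 pairs, so that 113 kb of H3K27me3 and 97.0 kb of H3K36me3 lay side by side as 1 block each.

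Runs of dominated bins were longer for H3K36me3, which also had more such bins. Next to a bin dominated by H3K36me3 came another in 422 of 746 cases (56.6%) and a bin dominated by H3K27me3 in 86 (11.5%). Next to a bin dominated by H3K27me3 came another in 106 of 352 cases (30.1%) and one dominated by H3K36me3 in 101 (28.7%). Of all evaluated bins, H3K36me3 dominated 43.7% and H3K27me3 19.6%, so for both marks like followed like more often than their share of bins. H3K36me3 had 96 runs of 3 or more such bins, against 18 for H3K27me3. Its longest runs were 13 bins on chromosome 19 (1 to 13000000) and 9 bins each on chromosome 17 (35000001 to 44000000) and chromosome 19 (16000001 to 25000000 and 33000001 to 42000000). The first held 1778 kb of H3K36me3, 72.2 kb of H3K27me3 and 605 H3K27ac peaks. The longest H3K27me3 run was 5 bins on chromosome 7 (18000001 to 23000000), with 276 kb of H3K27me3, 34.2 kb of H3K36me3, 259 peaks labelled H2A.Z and 21 H3K27ac peaks. Another 6 runs had 4 bins. They were found at 237000001 to 241000000 of chromosome 1, 51000001 to 55000000 of chromosome 7, 47000001 to 51000000 of chromosome 10, 39000001 to 43000000 and 78000001 to 82000000 of chromosome 11, and 85000001 to 89000000 of chromosome 14. The run on chromosome 10 held 295 H3K27me3 peaks but 49 labelled H2A.Z, where the other runs of 4 or 5 bins held 230 to 339.

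The fullest bins of each mark held little of the other. The bin with most H3K27me3 was on chromosome 5 (2000001 to 3000000), with 247 kb against 5.33 kb of H3K36me3. It was followed by neighbouring bins on chromosome 7 (3000001 to 4000000 and 4000001 to 5000000) with 209 and 188 kb, against 0 and 15.0 kb of H3K36me3. The bin with most H3K36me3 was on chromosome 9 (131000001 to 132000000), with 328 kb, 100 H3K27ac peaks and 0 peaks of H3K27me3 or the list labelled H2A.Z. The next were on chromosome 11 (47000001 to 48000000, 271 kb) and chromosome 3 (49000001 to 50000000, 260 kb), with 1.32 and 0.501 kb of H3K27me3.

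The other lists, which played no part in the calls, followed the classes. In bins dominated by H3K36me3, H3K27ac covered 2.40% and H3K4me2 2.83% of the analysed sequence, against 0.379% and 1.20% in those dominated by H3K27me3. Each was higher in the H3K36me3 bins on 23 of 23 chromosomes. The list labelled H2A.Z covered 3.43% in H3K27me3 bins and 0.267% in H3K36me3 bins, and was higher in the former on 22 of 23. The list labelled H3K9me3 differed little, at 0.672% and 0.501%, and was higher in H3K27me3 bins on 8 of 23 chromosomes, so its pooled direction did not hold within most of them.

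Chromosomes differed widely in which mark prevailed. H3K36me3 dominated 76.4% of the evaluated bins of chromosome 19, 75.4% of chromosome X, 68.8% of chromosome 4 and 67.3% of chromosome 2. H3K27me3 dominated 37.5% of chromosome 8, 28.0% of chromosome 11 and 27.7% of chromosome 10, and outnumbered H3K36me3 bins on chromosomes 8, 11 and 20. Chromosome 19 and chromosomes 2, 4 and X got their high share in different ways. On chromosome 19, H3K36me3 covered 11.1% of the span, the highest of all, and H3K27me3 1.23%. On chromosomes 2, 4 and X, H3K36me3 covered 2.77%, 1.84% and 1.88%, below its genome share, and H3K27me3 0.464%, 0.394% and 0.269%. The ratio of H3K27me3 to H3K36me3 in covered bp ran from 0.111 on chromosome 19 to 0.956 on chromosome 8.

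**Figure D5:**
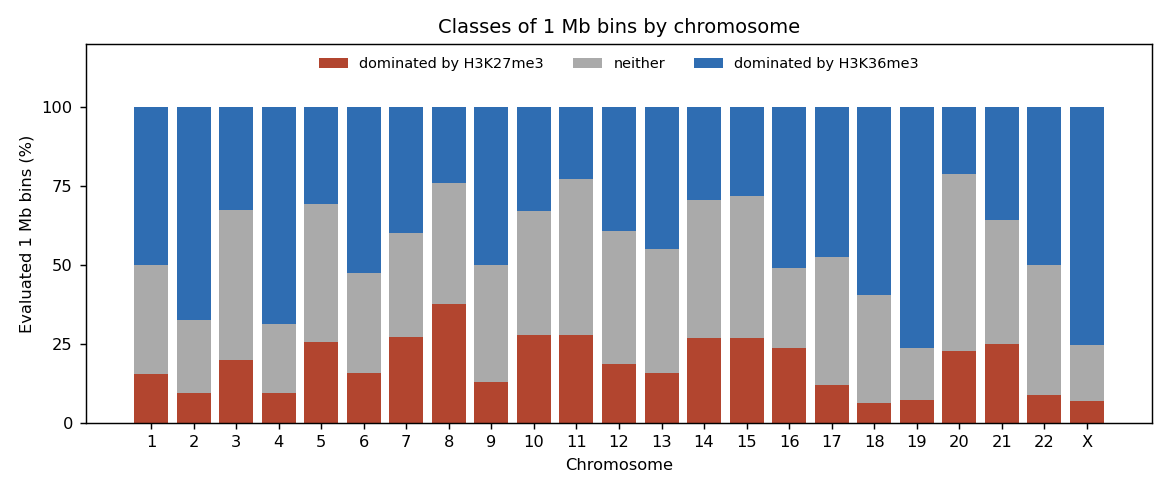
Share of evaluated 1 Mb bins (%) in each class, by chromosome. The H3K27me3 part is largest on chromosome 8 at 37.5%, and the H3K36me3 part is largest on chromosome 19 at 76.4% and chromosome X at 75.4%.

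Peak density of H3K27me3 by chromosome went most closely with the lists labelled H2A.Z and H3K9me3. Over the 23 chromosomes, Spearman's rho of H3K27me3 peaks per Mb was 0.900 with peaks labelled H2A.Z, 0.862 with peaks labelled H3K9me3, 0.637 with H3K4me2 and 0.628 with H3K36me3. H3K36me3 went with H3K27ac at 0.950 and with the list labelled H2A.Z at 0.448. These are descriptions over chromosomes, which share each library's depth. H3K27me3 had 49.2 peaks per Mb on chromosome 20 and 46.7 on chromosome 14, but 7.27 on chromosome 2, 5.75 on chromosome 4 and 4.22 on chromosome X. On these same chromosomes H3K36me3 had 24.4, 24.8, 15.6, 11.8 and 9.59. The list labelled H2A.Z had 46.7, 40.9, 1.76, 2.48 and 1.99. Over all chromosomes, H3K27me3 ranged from 4.22 to 49.2 peaks per Mb and H3K36me3 from 9.59 on chromosome X to 48.8 on chromosome 19. Chromosome copy number of the line was not measured here, and its part in these densities, and in the bins called by covered bp, was not tested. When each list was divided by its own total on the chromosome, H3K36me3 dominated 32.6% of bins and H3K27me3 26.3%.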

How the data were processed

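Peaks of the H3K27me3 and H3K36me3 libraries were analysed, with those of 4 other lists as a yardstick. The input library was not analysed here. Each of the 6 deposited files is a list of chromosome, start, end and name, without height or p-value. The tools named, per the submitters' processing notes, are HOMER 4.2 and Bowtie2 2.1.0, with hg19 and GRCh37 as builds. What each tool did, how peaks were called and how deep the libraries were is not given in the sources used here.

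Coordinates are printed 1-based. The analysed span, 2772.7 Mb, runs from the first to the last peak of any list on each chromosome, without 58 spans of 1 Mb or more that hold no peak (172.1 Mb). Distances, gaps and single run lengths were measured across those spans. Overlap meant at least 1 shared bp. Peaks were ordered by start for the switch counts. Bins of 1 Mb start at position 1. Functions were checked on simulated intervals with known answers. Named regions were the 3 longest domains of each mark at each merging distance, all overlaps, the 3 farthest peaks, the 3 runs with most peaks, the 4 longest runs of dominated bins (with ties) and the 3 fullest bins. The members and these rules were chosen with earlier results of these data known. The planned gene lists and sequences were not used, since the tables at hand are of another build. Alternatives were autosomes only, peaks wider than the commonest width (0.501 kb), midpoints, merged domains, an overlap of 50% of the shorter peak, other folds, bin sizes and scalings. Scaling by chromosome and leaving out chromosomes 2, 4, 13, 18 and X were added after seeing the data. Shares have exact binomial 95% intervals, which cover counting error only. Computation used Python 3.11.15, numpy 2.4.6 and scipy 1.17.1.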

Additional observations from a re-analysis of the deposited data

Results flagged for a closer look

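Peaks outside chromosomes 1 to 22 and X were not used above. They numbered 219 for H3K27me3 and 147 for H3K36me3, of which 211 and 142 lay on unplaced or alternate contigs. They were singled out only because no comparison used them, and their number was not tested.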

How the results depend on the processing

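No paired analysis was possible because each mark had 1 library and no replicate numbers. Over 11 results, 16 alternative values lay within the interval of the reported value and 27 did not. Using autosomes only moved none of the results it was run for; it was not run for the overlap count. Among peaks wider than 0.501 kb, median H3K27me3 domains were 846 bp within 1 kb and 2968 bp within 20 kb, H3K36me3 domains 1590 and 14842 bp, the distance to H3K36me3 203 kb, overlapping peaks 0, the switch rate 6.23%, and dominated bins 15.2% for H3K27me3 and 54.4% for H3K36me3. With an overlap of 50% of the shorter peak, 2 peaks overlapped. The switch rate was 5.48, 11.3 and 27.4% for domains merged within 1, 5 and 20 kb, by construction with fewer units, and 4.32% without chromosomes 2, 4, 13, 18 and X (chosen after seeing the data). Bins dominated by H3K27me3 and H3K36me3 were 26.1% and 55.5% at a fold of 2, 14.4% and 32.1% at a fold of 10, 26.4% and 34.6% scaled by genome totals, 27.2% and 31.9% by number of peaks, 26.3% and 32.6% scaled by chromosome (also chosen after seeing the data), and 25.2% and 48.8% in bins of 0.5 Mb. In bins of 2 Mb H3K27me3 dominated 12.7%. H3K36me3 dominated more bins than H3K27me3 in every one of these settings. The cause of the moved values was otherwise not tested. Depth is unknown, so what lies below the peak caller's cutoff cannot be seen, and covered length is not an amount of a mark.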

Other observations

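The closest contacts between the marks were not spread over the genome. Of the 12 H3K27me3 peaks that overlapped H3K36me3 or lay within 1 kb of it, 5 were on chromosome 14 and 5 on chromosome 17, which together hold 10.3% of all H3K27me3 peaks. The other 2 were on chromosomes 5 and 16. The 10 on chromosomes 14 and 17 faced 9 different H3K36me3 peaks, each of the commonest width, while the pair on chromosome 5 (169033997 to 169035062) faced an H3K36me3 peak of 18266 bp across 690 bp. Several contacts lay close together, as on chromosome 17 at 36352314 and 36358192 and on chromosome 14 at 72376686 and 72388213. This grouping was noticed in the data, rests on 12 peaks and was not tested.

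The chromosome 9 peaks farthest from H3K36me3 belonged to 1 run of 6 H3K27me3 peaks over 8.56 Mb (38654872 to 47212868), peak-free sequence included. On chromosome 13 a run of 10 H3K27me3 peaks lay between 61195297 and 73224149, with 75 H3K4me2 peaks and 0 labelled H2A.Z. It was the longest H3K27me3 run by span, so a run without H3K36me3 can be nearly empty of H3K27me3 as well.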
